A study of Melospiza melodia with 33 samples.

Results

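Repeatable transcripts are those whose level differs between individuals and returns when the same individual is sampled again. In the whole blood of wild adult male song sparrows (Melospiza melodia), 200 such genes were chosen from 5010 that could be chosen, out of 21141 gene rows in all. The choice used the 7 birds that had a library after each of 2 song playbacks, with the bird labelled 8439 left out. For each row with a gene name other than a LOC number (13068 rows) and a mean of at least 5 counts per M (CPM) in these 14 libraries, the variance of the bird means of log2 CPM was divided by the mean variance within birds plus 0.05. The 200 rows with the highest ratio are called the members here. Because measured values chose them, their levels in these 14 libraries are a description and carry no test. Tests and comparisons of spread use the 17 birds that gave a single library each and did not enter the choice.

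Territorial intrusions were simulated in Linesville, Pennsylvania, by playing song. The foreign song group heard recordings from Millbrook, New York (stimuli 1, 4 and 5, 12 libraries). The local song group heard recordings from Linesville (stimuli 2, 3 and 6, 11 libraries). The baseline group had no trial (10 libraries). The 33 libraries came from 25 free-living adult males with no genotype or drug treatment in the labels. Blood for the 4 foreign and 3 local song birds with a single library followed a first trial, whereas the 7 birds used for the choice had a first and a second trial, 1 with each song. All libraries carry 1 batch label. Foreign song libraries of several birds share a stimulus, as do local song libraries, so birds that heard 1 recording do not stand for separate songs.

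The red cells of birds keep their nucleus and go on transcribing, so most mRNA in whole blood comes from them, with heterophils, thrombocytes, lymphocytes and monocytes adding to it. Whole blood is a mixture, and in a mixture fewer cells of a type and less RNA per cell cannot be told apart. Repeatability is a standard measure in the study of wild animals: it is high where individuals keep their rank from one capture to the next. Many transcripts of blood vary with the day or the state of the animal, and others hold a level that is characteristic of the individual.

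Total counts ran from 71.0 to 92.5 M in the 14 libraries used for the choice, from 76.8 to 92.7 M in the 7 single-library song birds and from 74.2 to 103.7 M in the baseline birds. The libraries labelled 8439 held 64.7 M (foreign) and 68.4 M (local). No pair of libraries had identical values. Of the erythroid markers, 14 had a mean of at least 5 CPM in the 14 libraries, against 4 to 10 markers in each of the 5 other blood cell lists.

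Before the results, 3 libraries call for caution: the 2 labelled 8439 and the baseline library of 8450. Over the members, with each gene centred on its mean of all 33 libraries, the 2 libraries of a bird had a Pearson r of 0.841 to 0.962 in the 7 birds used for the choice. The choice favoured a high r in these 7 birds, so that range is a description. The pair labelled 8439, which did not enter the choice, had an r of −0.204, and of −0.402 over the other rows that could be chosen. The foreign song library labelled 8439 was instead most like the baseline library of bird 8450 (r = 0.729), although the labels give them to different birds. The next highest r between different birds was 0.412, between the foreign song library of 8431 and the baseline library of 8448, and the median over 520 such pairs was −0.0570. Over the other 4810 rows that could be chosen, the r of 8439 foreign and 8450 was 0.0611, against 0.528 to 0.719 for the 7 own pairs. The likeness of 8439 foreign and 8450 therefore held over the members and not over the other rows. Even over the members these 2 libraries differed by a median of 0.565 on the log2 scale, and 53 members (26.5%) differed by 1 or more. The 7 own pairs had medians of 0.175 to 0.288 and 2 to 11 such members. Pairs of different birds had medians of 0.541 to 1.34. What lies behind the likeness was not tested. The local song library labelled 8439 had no near match, with 8428 foreign highest at r = 0.196. Gaps between baseline birds, the median spread of all members, the counts of calls and the fold changes of CCNG1, AEN and RBBP7 are given with and without 8450. Other results over baseline birds, such as spread by mean level, likeness of neighbouring genes and principal components, are given only with 8450 included.

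**Figure D1:**
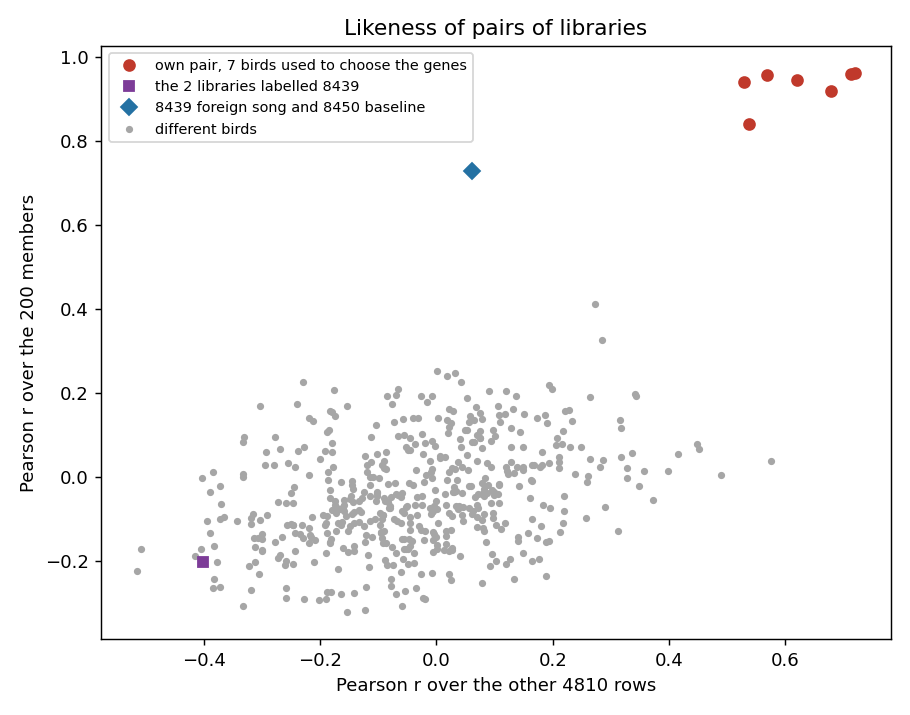
Each point is a pair of libraries, placed by the Pearson r of centred log2 CPM over the other 4810 rows (horizontal axis) and over the 200 members (vertical axis). The own pairs of the 7 birds sit at 0.841 to 0.962 on the vertical axis, a height that the choice favoured. The pair labelled 8439 sits at −0.204, and 8439 foreign song with 8450 baseline at 0.729.

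The members stood out by distance between birds, not by closeness within them. Their bird means had a median SD of 0.937 on the log2 scale, against 0.332 over all 5010 rows. Within birds the median SD was 0.242 for the members and 0.249 over all rows. The ratio ran from 4.95 to 55.6 with a median of 7.58, against a median of 0.912 over all rows. At the edge, C2H21orf91 (4.99), ORMDL1 (4.95) and MTERF3 (4.95) were the last inside, and CELF2 (4.94), MTCL2 (4.92) and ACAA1 (4.91) the first outside, so the edge marks no break. Members were less abundant than the rest, with a median mean level of 13.1 CPM, against 31.6 CPM over all rows. A total of 32 members would have fallen under 5 CPM without their highest bird, against 153 of all 5010 rows. In the 17 birds not used, 14 members had a mean under 5 CPM, against 59 of all 5010 rows, which leaves 186 members at or above it.

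By function the members were spread over most of cell biology. Grouped by hand after they were chosen, 31 are metabolic enzymes and 30 are signalling enzymes, receptors or adaptors. A further 27 act in membrane traffic, the cytoskeleton or cilia, 21 in membrane transport or lipid handling and 21 in RNA processing, ribosome assembly or translation. Transcription, chromatin and DNA repair account for 19, protein folding, modification and breakdown for 11, immune signalling and defence for 9, mitochondria and other organelles for 6 and sugar transfer and glycan synthesis for 5. The other 20 were not grouped.

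Genes that mark blood cell types were members about as often as other genes. Of 43 marker rows in 6 cell type lists, 2 were members (4.65%), beside 3.99% of all rows that could be chosen. These were ALAD, an enzyme of haem synthesis (1 of 14 erythroid markers), and NCF4, a subunit of the phagocyte oxidase (1 of 5 heterophil markers). The 10 markers of thrombocytes, 5 of T cells, 4 of B cells and 5 of monocytes held no member. The same ratio was also taken of each list's mean log2 CPM. This score used a wider set, the list rows with a mean over all 33 libraries of at least 1 CPM (10 to 16 rows per list). Its ratio was 2.11 for heterophil markers and 0.227 to 0.891 for the other 5 lists. The median over all rows was 0.912 and the lowest member had 4.95. A list's mean averages several genes, so its ratio is not of the same kind as that of a single row. The heterophil score ran from 0.43 to 2.60 on the log2 scale in the 14 libraries and from 0.82 to 3.41 in the 17 birds not used, and the erythroid score from 7.20 to 7.71 and from 6.92 to 7.69.

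Other functional lists ranged from no member to a larger share. Heat shock and chaperone genes gave 0 members of 20, circadian clock genes 0 of 11, proteasome genes 0 of 35, glutathione and xenobiotic metabolism genes 0 of 10 and genes of antigen presentation 0 of 5. Of 77 rows with ribosomal protein names 1 was a member, RPS19BP1, which binds a ribosomal protein and is not one. The 2 members in the oxidative phosphorylation list (of 51), NDUFAF1 and NDUFAF2, are assembly factors of complex I. Glycosyltransferases gave 4 members of 21 (GALNT17, B3GALT5, ST6GALNAC6 and EXT2) solute carriers 5 of 78, and genes with G protein-coupled receptor names 2 of 6 (GPR180 and ADGRF5). The interferon list gave STAT2 (1 of 18), the complement and lectin list LGALS8 (1 of 4), and the immediate early and glucocorticoid lists shared DUSP1 (1 of 8 and 1 of 7). No test was made on these counts.

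Among the metabolic enzymes, ADI1 had the highest ratio of all (55.6). It is the dioxygenase of methionine salvage, the pathway that rebuilds methionine from the by-product of polyamine synthesis. ADI1 stood at 147 CPM after foreign and 154 CPM after local song in bird 8428, and at 0.532 to 3.43 CPM in the other 12 libraries of the choice. In birds not used, ADI1 ran from 1.43 to 27.6 CPM in song birds (median 3.92) and from 1.32 to 7.93 CPM in baseline birds (median 2.17). One bird was thus far above all others, a song bird (8437 local) came next at 27.6 CPM, and the song and baseline birds overlapped.

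NAXD, which repairs damaged hydrated NADH and NADPH, followed with a ratio of 41.0. Its pairs kept widely different levels, at 43.3 CPM (foreign) and 49.9 CPM (local) in bird 8436 and at 0.759 and 0.836 CPM in bird 8430. The 10 baseline birds fell into 2 levels of NAXD, with 7 birds at 8.33 to 20.8 CPM and 3 birds (8442, 8443 and 8449) at 1.28 to 1.50 CPM. No baseline bird lay between them, and the gap was 5.53-fold. Song birds with a single library reached from 1.98 to 15.5 CPM, with 4 nearer the high level and 3 nearer the low one. The 3 had 1.98 to 2.12 CPM and the lowest of the 4 had 4.51 CPM, so these song birds lay between the baseline levels.

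GCSH, the H protein that carries the glycine residue through the mitochondrial glycine cleavage system, had 2 levels. It was at 11.1 to 29.4 CPM in both libraries of 5 paired birds and at 0.476 to 1.05 CPM in both libraries of the other 2 (8427 and 8436). Of the baseline birds, 8 had 6.17 to 20.7 CPM and 2 (8443 and 8450) had 0.741 and 0.881 CPM. Of the single-library song birds, 5 had 10.6 to 30.2 CPM and 2 had 0.443 and 0.927 CPM. In these 24 birds the low and high levels of GCSH did not meet. That no pair was mixed follows in part from the choice, which favoured small differences within birds.

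QDPR, which regenerates the cofactor tetrahydrobiopterin, was high in bird 8429, at 36.0 CPM (foreign) and 47.6 CPM (local), and at 1.68 to 5.18 CPM in the other 12 libraries. In birds not used, QDPR had 1.93 to 5.61 CPM in song birds and 1.74 to 40.6 CPM in baseline birds. The baseline maximum belonged to bird 8447, and the next baseline bird had 7.82 CPM. PRDX4, a peroxiredoxin of the secretory pathway, ran from 34.2 to 73.8 CPM in song birds and from 6.18 to 161 CPM in baseline birds, so its baseline range enclosed the song range.

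Among genes of lipid handling, PCTP, which carries phosphatidylcholine between membranes, varied without such a gap in level, from 18.3 to 180 CPM in song birds (median 49.3) and from 16.0 to 345 CPM in baseline birds (median 125), and the groups overlapped.

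Of the genes of sugar transfer, GALNT17 belongs to the family that starts mucin-type O-glycans. It had 2.61 to 126 CPM in 5 single-library song birds and 0.586 and 0.767 CPM in the other 2. In baseline birds GALNT17 had 5.23 to 115 CPM in 6 and 0.328 to 1.02 CPM in 4 (8443, 8447, 8448 and 8450). All 14 libraries of the choice were in the high range, at 6.20 to 117 CPM. The low level of GALNT17 therefore occurred in the birds not used and in 8439 foreign (0.741 CPM), but in none of the 7 birds that chose it. B3GALT5, a galactosyltransferase, had the widest baseline range of all members (11.7 on the log2 scale with a prior count of 1), from 0 to 39.6 CPM with a median of 4.04, and from 0.104 to 42.2 CPM in song birds with a median of 21.5.

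Among signalling and transport genes, CACHD1, a partner of voltage-gated calcium channels, was at 49.0 to 123 CPM in 3 baseline birds (8443, 8446 and 8450) and at 0.0868 to 10.9 CPM in the other 7. A single-library song bird at 17.4 CPM of CACHD1 lay between these levels. EDA, the ectodysplasin ligand of the tumour necrosis factor family, had 8.41 to 50.1 CPM in 7 baseline birds and 0.326 to 1.91 CPM in 3. Single-library song birds at 3.28 and 4.93 CPM of EDA lay between them. PDE11A, a phosphodiesterase of cyclic AMP and GMP, was a different case. It had 35.9 CPM (foreign) and 47.3 CPM (local) in bird 8427, 0.757 CPM at most in the other 12 libraries of the choice and 0.0723 CPM at most in the 17 birds not used. Its place among the members thus rested on 1 bird.

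Among genes of traffic and the cytoskeleton, ARFGAP3, a GTPase-activating protein of the Golgi, was low in bird 8430 at 4.76 CPM (foreign) and 3.64 CPM (local), against 29.6 to 77.4 CPM in the other 12 libraries. In birds not used, ARFGAP3 ran from 4.42 to 61.9 CPM in song birds (median 27.6) and from 4.36 to 102 CPM in baseline birds (median 52.5). ABLIM3, an actin-binding LIM protein, was at 8.99 to 31.0 CPM in 8 baseline birds and at 0.0915 and 0.434 CPM in 2 (8443 and 8444). The lowest single-library song bird, at 2.49 CPM of ABLIM3, lay between these levels. TMEM237, a protein of the base of the cilium, was at 130 and 199 CPM in 2 baseline birds (8450 and 8448) and at 4.54 to 28.1 CPM in 8. Single-library song birds at 37.0 and 73.6 CPM of TMEM237 lay between them.

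Of the immune members, LY6E, an interferon-induced surface protein, had 6.42 to 25.2 CPM in song birds and 0.0943 to 77.2 CPM in baseline birds. The lowest LY6E value was that of 8442 and the highest that of 8447. STAT2, which relays type I interferon signals, had 47.1 to 264 CPM in song birds (median 115) and 93.2 to 330 CPM in baseline birds (median 135). LGALS8, a galectin, had 11.5 to 67.1 CPM in song birds and 26.6 to 90.6 CPM in baseline birds. Song and baseline birds overlapped in each of these 3 genes. NCF4 was above the rest in bird 8426, at 25.0 CPM (foreign) and 14.5 CPM (local), against 2.10 to 5.44 CPM in the other 12 libraries.

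**Figure D2:**
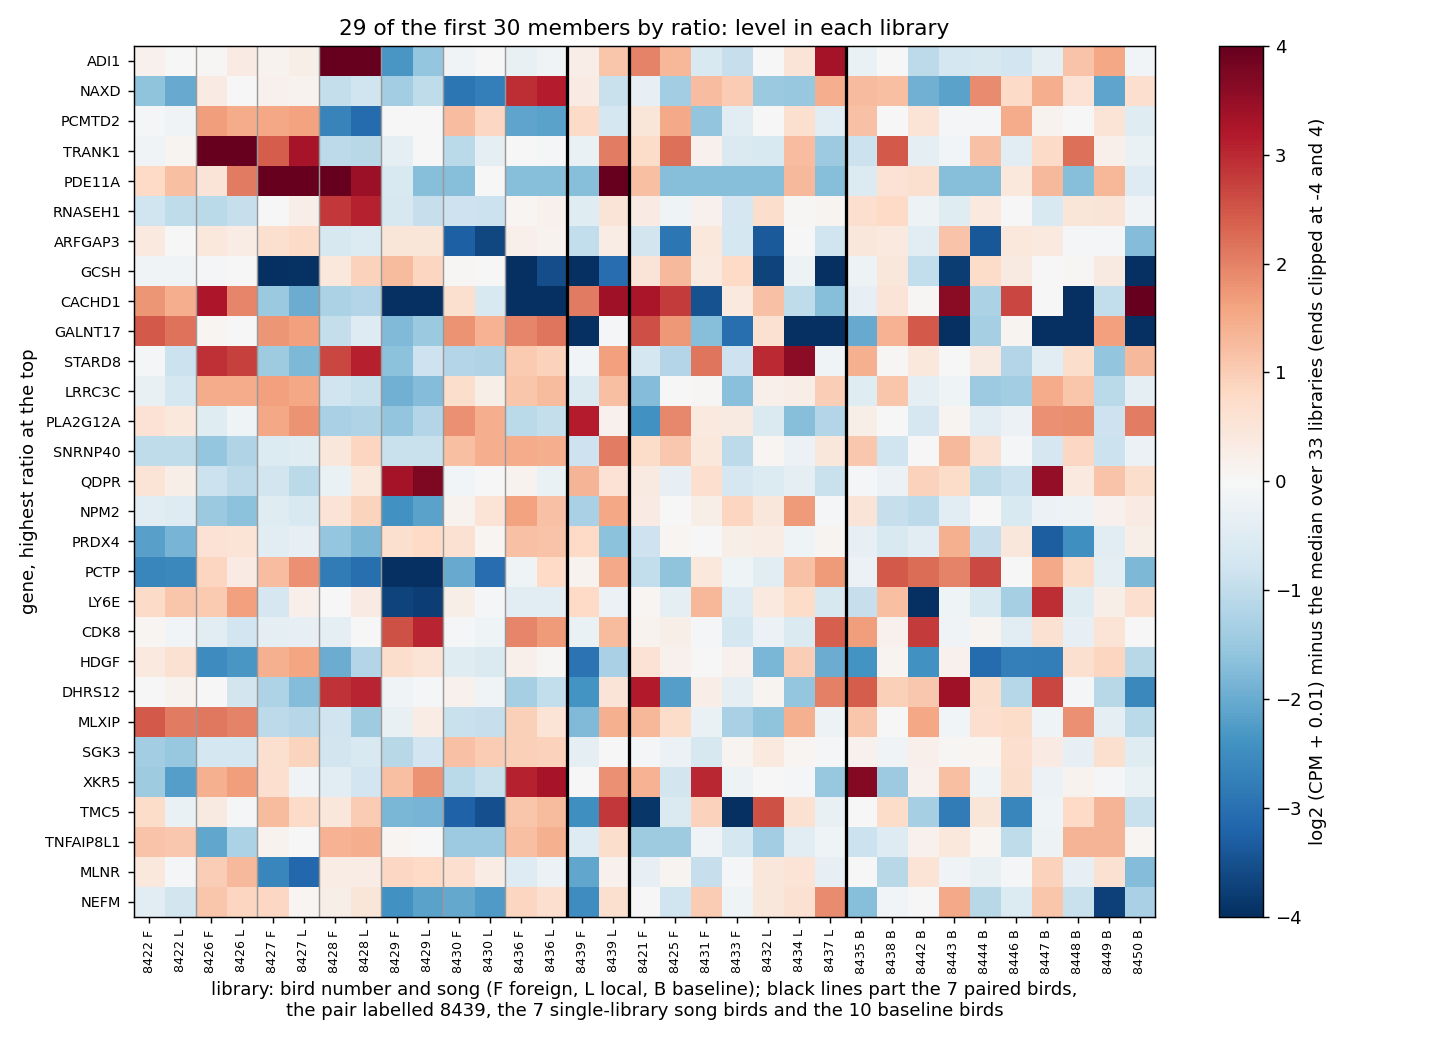
Rows are 29 of the 30 members with the highest ratio and columns the 33 libraries; colour gives log2 (CPM + 0.01) minus the gene's median over the libraries. Neighbouring columns of a paired bird have like colours in the 7 birds used for the choice, and ADI1 is dark red in both libraries of bird 8428 (147 and 154 CPM).

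**Figure D3:**
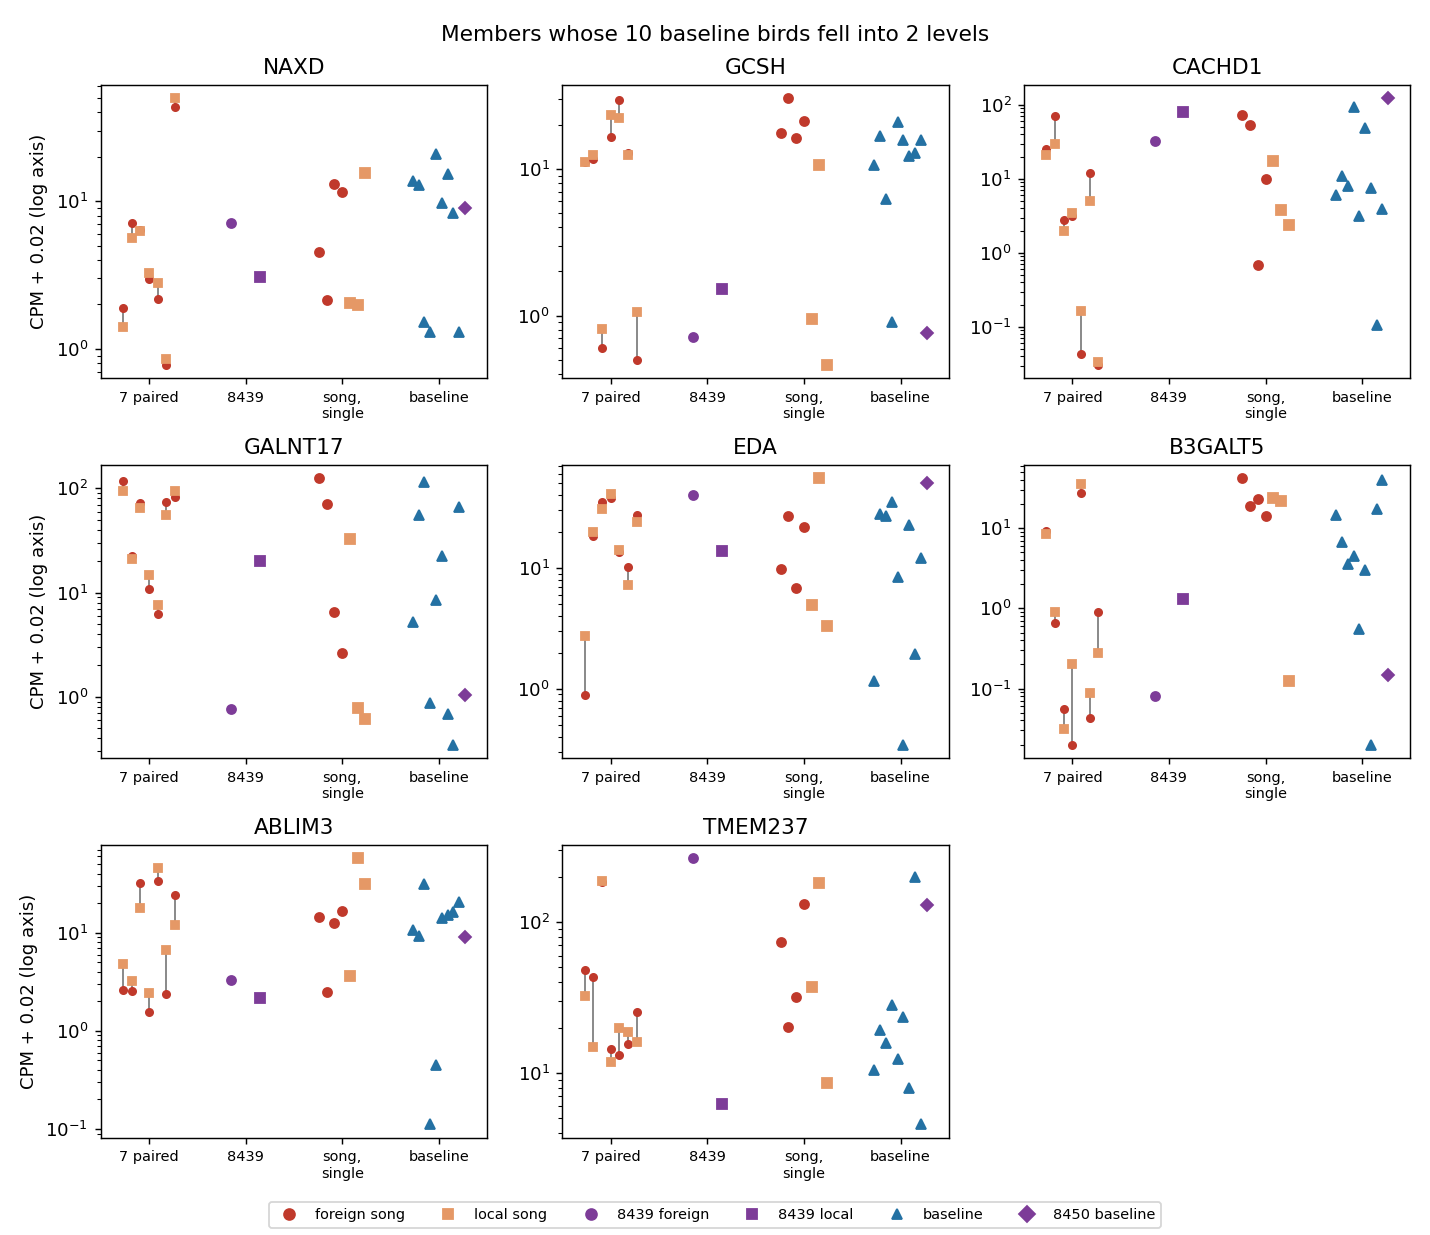
Each panel shows 1 of 8 members with a gap of at least 4-fold between 2 levels in baseline birds; the vertical log axis is CPM + 0.02, and lines join the libraries of a paired bird. In GCSH 8 baseline birds lie at 6.17 to 20.7 CPM and 2 at 0.741 and 0.881 CPM, and each of the 7 paired birds has both libraries on 1 side.

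A gap of at least 2 on the log2 scale (4-fold), with at least 2 of the 10 baseline birds on each side, was found in 9 members (4.5%), against 13 of the 5010 rows (0.259%). The 8 described here are NAXD, GCSH, CACHD1, GALNT17, EDA, B3GALT5, ABLIM3 and TMEM237. When the paired birds were placed on the nearer side, both libraries of a bird fell on 1 side in all 7 birds for 6 of these 8 genes, and in 6 of 7 birds for CACHD1 and ABLIM3. These pairs are the libraries of the choice, which selected for small differences within birds, so this is a description and no support. The low birds were not the same from gene to gene: 8443 was low in NAXD, GCSH, GALNT17 and ABLIM3, yet high in CACHD1. Without bird 8450, 8 members had such a gap, with GCSH and TMEM237 lost and HDGF added, against 10 of all rows. Over the 7 single-library song birds 9 members had one (background 0.439%), among them GCSH and GALNT17, which also had one in baseline birds. For GALNT17 the 2 gaps did not part the same levels. Its baseline gap ran from 1.02 to 5.23 CPM, where the song birds were at 0.767 and 2.61 CPM, less than 4-fold apart.

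In the libraries of the choice, 43 members (21.5%) had 1 of the 7 birds apart from the other 6 by more than 50% of the whole range, against 12.2% of all rows. The lone bird was high in 31 members and low in 12, against high in 266 and low in 344 of all 5010 rows. A row can reach the minimum mean of 5 CPM through 1 high bird. Each of the 7 birds was the lone one for 4 to 9 members, led by 8436 with 9. For 14 of the 43, none of the 17 birds not used lay on the lone bird's side, for 19 between 1 and 3 did, and for 10 at least 4 did. These 3 counts were not made over all rows. SHROOM3, an actin-binding protein of epithelial shape, was the extreme of the first kind, with 239 CPM (foreign) and 284 CPM (local) in bird 8428 and 0.486 CPM at most in the other 12 libraries of the choice. HOOK1, a microtubule adaptor, had 29.7 CPM (foreign) and 36.4 CPM (local) in bird 8429, against 2.06 CPM at most in the birds not used. RNASEH1, which removes RNA from RNA and DNA hybrids, had 45.8 CPM (foreign) and 53.6 CPM (local) in bird 8428, against 4.02 to 10.5 CPM in song and 4.20 to 11.1 CPM in baseline birds not used. SHROOM3 and HOOK1 were singled out after their values were seen.

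The wide spread of the members was present in birds that did not choose them. Over the 7 single-library song birds the median SD of log2 CPM was 0.815 for the members and 0.469 over all rows (1.74-fold). Over the 10 baseline birds it was 0.758 for the members and 0.400 over all rows (1.89-fold), and 185 members (92.5%) lay above the median of all rows. An SD of at least 1, which is a 2-fold typical distance from the mean, was reached by 68 members (34%) over song birds, against a background of 5.41%, and by 57 (28.5%) over baseline birds, against 3.27%. Both were reached by 42 members (21%), against 1.66%. Without bird 8450 the baseline values were 51 members (25.5%) and 2.20% of all rows, and the median SD was 0.702 for the members and 0.333 over all rows.

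The wider spread of the members was present in each class of mean level, with the mean taken over the 14 libraries of the choice. These classes need not match the level in baseline birds. ADI1, for example, had a mean of 23.6 CPM in the 14 libraries and 2.99 CPM in baseline birds. Over baseline birds the median SD was 0.783 for the members and 0.492 for all rows at 5 to 20 CPM, 0.786 and 0.367 at 20 to 100 CPM, and 0.646 and 0.339 at 100 CPM or more, a class with 10 members. Not every member spread widely. CNDP2, a dipeptidase, had 14.1 to 21.6 CPM over the baseline birds, a range of 0.62 on the log2 scale and the narrowest of all members. PDCD5 (0.65), RHOT1 (0.71), COMMD9 (0.92) and GFPT1 (0.96), the first enzyme of hexosamine synthesis, had the next narrowest ranges. A total of 4 members over baseline and 12 over song birds lay under the first quartile of all rows.

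**Figure D4:**
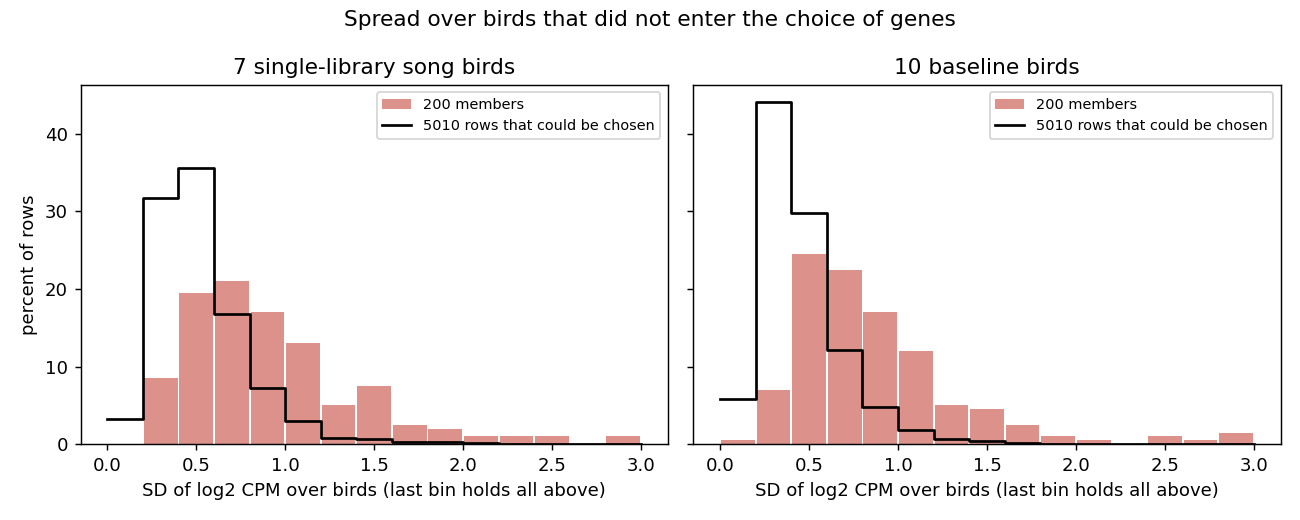
Bars give the percentage of the 200 members, and the black line that of the 5010 rows, in bins of SD of log2 CPM over the 7 single-library song birds (left) and the 10 baseline birds (right). The bars reach further right than the line: 34% and 28.5% of the members lie at 1 or more, against 5.41% and 3.27% of all rows.

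Members were often next to each other on the chromosomes. In RefSeq's gene order for assembly bMelMel2.pri, used for neighbours alone, all 200 members were found. Counted from each member in turn, 138 neighbours could have been chosen, and a gene beside several members is counted for each. Of these 138, 30 were members (21.7%), against 3.99% of all rows. Each pair of members is counted from both sides, which makes 15 adjacent pairs. In the 17 birds not used, the Pearson r of log2 CPM within these pairs had a median of 0.797, and 9 of 15 (60%) were at 0.7 or more. For 1763 adjacent pairs with no member the median was 0.344 and 11.1% were at 0.7 or more, and for 108 pairs of a member and another gene it was 0.210 and 7.41%. Of the 15 pairs of members 33.3% overlap in the annotation, against 5.39% of the pairs with no member. Among pairs that do not overlap the median was 0.701 for the 10 pairs of members, with 5 (50%) at 0.7 or more, against 0.344 and 11.3% for 1668 pairs with no member. All pairs share the 17 libraries, so these values are a description.

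The pairs joined genes of different roles. SRPRA, a receptor subunit for the signal recognition particle, and FAM118B had an r of 0.913. SNRNP40, a protein of the U5 small nuclear ribonucleoprotein, and ZCCHC17 had an r of 0.912. CASP6, an executioner caspase, and PLA2G12A, a secreted phospholipase, had an r of 0.879, and MAP3K21 and PCNX2 one of 0.872. EAF1 and METTL6 (0.926) and RIMOC1 and FBXO4 (0.890) overlap in the annotation, as do 3 more of the 15 pairs. Whether the counting used strand is not known, and without it reads of overlapping genes cannot be told apart. Adjacency did not always go with likeness: ADI1 and RNASEH1, both high in bird 8428, had an r of 0.910 over the 7 bird means that chose them but 0.287 in birds not used. MICAL1 and SMPD2 had 0.893 over those bird means and −0.17 in birds not used.

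**Figure D5:**
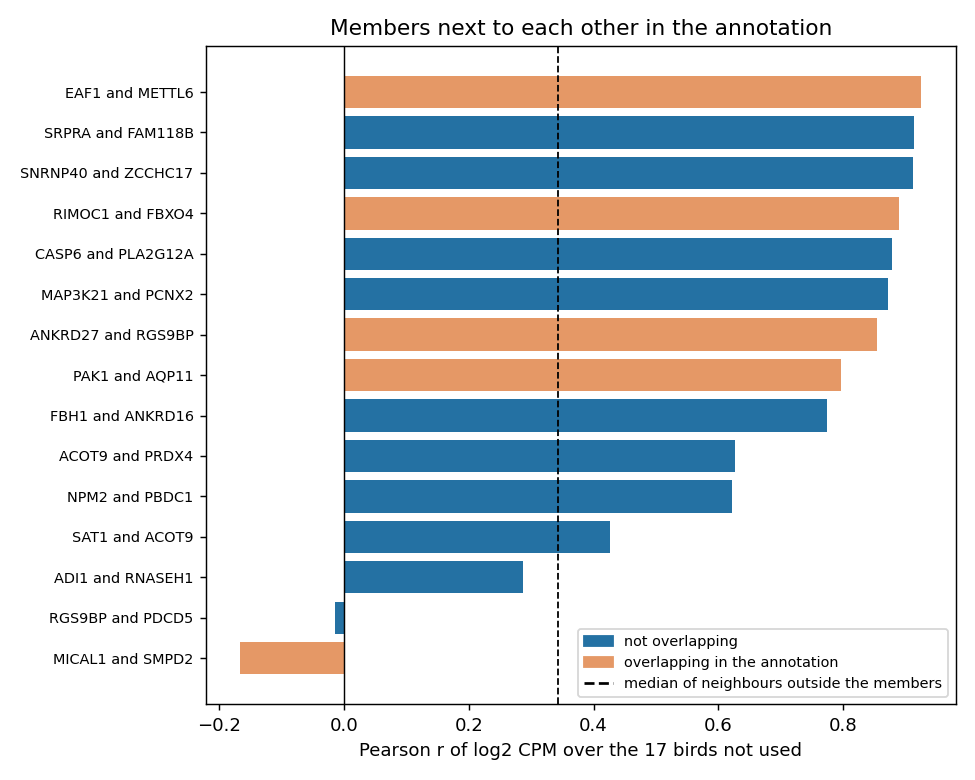
Bars give the Pearson r of log2 CPM over the 17 birds not used for the 15 pairs of members that are next to each other; the dashed line is the median of 1763 adjacent pairs with no member (0.344). Of the 15 pairs, 12 lie above the line, and RGS9BP with PDCD5 and MICAL1 with SMPD2 are under 0.

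Beyond neighbours, members did not move as 1 block. Over the 17 birds not used, the first principal component held 13.4% of the members' variance, against 23.1% for all 5010 rows. The rows most like ADI1 over these birds, among 8984 searched, were LOC134431173 (r = 0.838), FGFBP2 (0.655) and LOC134415511 (0.649). For NAXD they were LOC134414801 (0.657), ORC4 (0.639) and LOC134426894 (0.631). For PCMTD2, a relative of the methyltransferases that repair aged proteins, they were ATF1 (0.640), EIF4A2 (0.624) and MFSD2B (0.623), the last a member itself.

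Between the 2 libraries of a bird, the members differed about as much as other rows, although the choice favoured small differences. The median absolute log2 difference between the 2 libraries over the members was 0.175 to 0.288 in the 7 birds, against 0.221 to 0.328 over all 5010 rows, and 2 to 11 members (1% to 5.5%) differed by 1 or more. In the pair labelled 8439, which did not enter the choice, it was 1.08, and 110 members (55%) differed by 1 or more. Over all 5010 rows 42.7% differed by that much in 8439, against 0.978% to 5.33% in the 7 birds. Over the members, libraries of different birds differed by a median of 0.541 to 1.34, and the pair labelled 8439 lay within that range. In the 8439 local song library the thrombocyte marker score was 6.37 and the monocyte score 4.33 on the log2 scale, against at most 4.93 and 3.73 in the 14 libraries of the choice and the 17 birds not used. The heterophil score (3.56 against at most 3.41) and the erythroid score (7.80 against at most 7.71) were also above those libraries. The T cell (3.22) and B cell (3.19) scores were not, with maxima of 3.94 and 3.30. The part of blood cell types in the difference was not tested.

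Song and baseline birds were compared over the 17 birds not used, which the rule did not touch. No member passed. With the quasi-likelihood test of edgeR, adjusted by Benjamini-Hochberg over 13101 rows, 0 were called (0.0%), and the lowest adjusted p was 0.430 over all rows and 0.901 over the members. Of the 200 members 198 were tested, since SHROOM3 and PDE11A were too low. At an unadjusted p under 0.05 there were 674 rows (5.14%), among them 21 members (10.6%), 7 higher and 14 lower in song birds. Of the 674 rows, 257 were higher and 417 lower. DESeq2 called 10 of the 13101 rows given to it (0.0763%), none of them a member. It gave no adjusted p for SLC43A3, the member of smallest p in edgeR, so that gene could not be called there.

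SLC43A3, a nucleobase transporter, had 3.37 to 144 CPM in song birds (median 8.15) and 0.760 to 8.70 CPM in baseline birds (median 4.00), with 2 song birds, 8431 at 144 CPM and 8432 at 66.8 CPM, far above all others. Its log2 fold change of song over baseline was 2.88 ± 0.71 (SE, edgeR adjusted p = 0.901), and 1.63 without 8431. CCNG1 and AEN, which are both induced by p53 in mammals, stood lower in song birds without passing. CCNG1 had 6.20 to 23.3 CPM in song birds (median 12.1) and 7.29 to 85.8 CPM in baseline birds (median 23.5), with a log2 fold change of −1.40 ± 0.41. AEN had 1.37 to 16.1 CPM in song birds (median 7.89) and 4.14 to 76.2 CPM in baseline birds (median 10.5), with a log2 fold change of −1.52 ± 0.55. The highest baseline values of both genes were those of 8450, and the 8439 foreign song library, which that of 8450 resembled, held 187 CPM of CCNG1 and 101 CPM of AEN. Without 8450 the log2 fold changes were −1.24 for CCNG1 and −1.18 for AEN, at edgeR adjusted p of 0.397 and 0.435. With the 8439 foreign song library added to the song birds they were −0.29 for CCNG1 and −0.24 for AEN (edgeR adjusted p of 0.975 and 0.980). RBBP7, a histone-binding protein (0.90 ± 0.28), and CSRNP1, a nuclear protein (1.15 ± 0.37), had positive values, and C2H21orf91 a negative one (−0.61 ± 0.21). The value of CSRNP1 was 0.44 without the local song bird 8432, and that of C2H21orf91 was −0.33 with 8439 foreign added. For RBBP7, whose highest baseline value was that of 8450, it was 1.07 without 8450. The groups overlapped in all 6 genes, and the edgeR adjusted p was 0.901 for each.

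Foreign and local song were compared in the same fit, with 4 and 3 birds. Again 0 of 13101 rows were called by edgeR (0.0%), with a lowest adjusted p of 0.177 over all rows. At an unadjusted p under 0.05 there were 713 rows (5.44%), among them 17 members (8.59%), 2 higher and 15 lower after foreign song. Of the 713 rows, 272 were higher and 441 lower. CSRNP1 had the lowest adjusted p of the members. It had 2.57, 2.79, 4.50 and 5.17 CPM after foreign song, against 4.46, 14.5 and 56.8 CPM after local song, so that 1 local bird lay within the foreign range. Its log2 fold change was −2.91 ± 0.59 (edgeR adjusted p = 0.556). DESeq2 called CSRNP1 (adjusted p = 0.00195), the sole member among its 10 calls (0.0763%). With the local song bird 8437 left out, edgeR called CSRNP1 as well (adjusted p = 0.0395). Without the local song bird 8432, which held 56.8 CPM, the log2 fold change was −1.50 (edgeR adjusted p = 0.995).

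GCSH had 16.1, 17.5, 21.3 and 30.2 CPM after foreign song, against 0.443, 0.927 and 10.6 CPM after local song. Its log2 fold change of 2.42 ± 1.08 had an edgeR adjusted p of 0.914, and it was 4.73 without the local song bird 8434 (edgeR adjusted p = 0.355). NT5DC2, of the family of 5'-nucleotidase domain proteins, had 3.61 to 7.98 CPM after foreign and 11.6 to 29.5 CPM after local song (−1.96 ± 0.64, edgeR adjusted p = 0.914). Its log2 fold change was −1.10 without the local song bird 8437. STARD8, a lipid-binding GTPase regulator, stood at −2.40 ± 0.79, NEK7, a kinase of mitosis and the inflammasome, at 0.98 ± 0.46, and DIS3, the exosome nuclease, at 1.72 ± 0.83, with overlapping birds and the same adjusted p. The value of STARD8 was −3.69 without the foreign song bird 8431, and that of NEK7 was 0.59 when the level of leukocyte and thrombocyte markers was added to the fit.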

How the data were processed

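The authors deposited 1 file of raw counts per library, in whole numbers over 21141 gene rows. The submitters' processing notes name fastp and STAR; for their versions, the counting program, the strand setting and the genome build, the sources used here say nothing. Per the labels' protocols, poly(A) RNA libraries of blood were sequenced on a NovaSeq X Plus without haemoglobin depletion. How reads of near-identical copies were shared out is not known, and such genes are uncertain. Libraries were made from 3 lanes, except 2 libraries (8425 foreign, 8446 baseline) made from 2.

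The members and the gene lists were chosen with earlier results of these data known. Log2 CPM used total counts and a prior count of 1. Tests used R 4.3.3, edgeR 4.0.16 (filterByExpr with minimum count 10 and minimum total 15, TMM, robust quasi-likelihood), with DESeq2 1.42.0 and limma 3.58.1 as alternatives, at an adjusted p of 0.05, on 4 foreign, 3 local and 10 baseline libraries. The standard error is the log2 fold change divided by the root of F. Fits were tested on simulated counts. A total of 64.7 to 103.7 M counts per library limits counting error to low genes, and p-values set group differences against the spread between these birds.

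Named genes are the 30 members of highest ratio, those at the threshold, members in listed functions, those of widest and narrowest baseline range, those with split baseline levels, those of smallest p in each direction, adjacent members, and the 3 rows most like each of the first 3. 1 member is counted but not reported here. Libraries of the 8 birds with both songs were paired by the bird numbers in the labels. Centred values of a pair correlated at 0.528 to 0.719 over the other rows in 7 birds and at −0.40 in 8439.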

Additional observations from a re-analysis of the deposited data

Results flagged for a closer look

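For each of 75 named genes, the highest and lowest bird were compared with their nearest neighbour in the 10 baseline birds and the 4 single-library foreign song birds, on log2 CPM with a prior count of 1. A bird was singled out when its gap to the nearest other bird, as a share of the group's range, exceeded Dixon's 95% critical value. Of 150 groups 11 were singled out, and chance alone would single out about 1 in 20 if the genes had been named without these libraries. Some were named for their baseline range, split baseline levels or small p in these same birds, so that rate does not hold for them.

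In the foreign song birds, PDE11A was highest in 8421 (gap 1.00 of the range, at 0.0647 CPM against 0 in the other 3 birds). STARD8 was highest in 8431 (0.857, 9.80 CPM against 1.36 CPM in the next bird). ABLIM3 was lowest in 8425 (0.850, 2.49 against 12.6 CPM), as was ANKRD16 (0.843, at 5.59 CPM). Bird 8433 was lowest for AQP11 (0.833, 16.7 against 35.8 CPM) and for ZCCHC17 (0.915, 0.733 against 10.9 CPM).

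In the baseline birds, CACHD1 was lowest in 8448 (0.485, 0.0868 against 3.14 CPM) and LY6E in 8442 (0.551, 0.0943 against 3.98 CPM). QDPR was highest in 8447 (0.523, 40.6 against 7.82 CPM), XKR5 in 8435 (0.481, 26.8 against 4.86 CPM) and RBBP7 in 8450 (0.523, 18.9 against 8.80 CPM).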

How the results depend on the processing

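Among 200 members, 146 stayed with TMM scaling, 120 with a mean CPM minimum of 1, 69 with a minimum of 20, 122 with the pair labelled 8439 included, 125 with LOC rows included (75 LOC rows entered), 164 and 158 with an added constant of 0.01 and 0.25, 199 with a prior count of 5, and 157 to 176 without each bird in turn. A total of 51 stayed without every bird, and 13 in all 16 settings. Members in the cell type lists numbered 1 with either minimum, against 2. The r of 8439 foreign and 8450 was 0.0611 over the other rows. Without each bird, the spread of members over that of all rows was 1.66 to 1.84 times in song and 1.87 to 2.11 times in baseline birds.

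DESeq2 called 10 rows for song against baseline and 10 for foreign against local song, where edgeR called 0. Leaving out each of the 7 single-library song birds in turn gave 0 calls for song against baseline. For foreign against local song it gave 0 to 6 calls, with 6 without 8434 and 2 without 8437. Of the baseline birds, 8450 alone was left out singly in these tests. Without 8450, an alternative added after seeing the data, both had 0 calls. For song against baseline 1368 rows (10.5%) then had an unadjusted p under 0.05, among them 33 members (16.7% of those tested). With 8450 there were 674 rows (5.14%) and 21 members (10.6%), so the share rose over all rows as well. With the bird as a replicate block, 0 rows were called in either comparison. For song against baseline that fit used all 33 libraries, with the 14 of the choice and the pair labelled 8439 among them. It is therefore no separate test of the members. Its values were 1.15 for SLC43A3, 0.56 for CSRNP1, −0.71 for CCNG1 and −0.74 for AEN. In the paired fit of 8 birds the log2 fold changes of GCSH (−0.17), NEK7 (−0.16), DIS3 (−0.30), CSRNP1 (0.19) and NT5DC2 (0.016) had the other sign. This fit rests on the 14 libraries of the choice, which favoured small differences within birds, and on the pair labelled 8439. The fit is therefore no separate test of these genes, and how far the choice set its values was not tested. In this edgeR fit 4 members (2.02% of those tested) had an unadjusted p under 0.05, against 486 of all rows (4.18%). Within the 7 birds of the choice, the median SD was 0.242 for the members and 0.249 over all rows.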
